A study of Mus musculus with 8 samples.

Results

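The aldo-keto reductases of the *Akr1c* and *Akr1b* subfamilies were followed in RNA-seq of the distal colon of WT and *Hsf1* null mice. The genes were chosen by symbol, as 6 listed names: *Akr1c19*, *Akr1c12*, *Akr1c13*, *Akr1c14*, *Akr1b3* and *Akr1b8*. *Akr1c19* was listed because it differed between the genotypes in untreated mice. Its day 0 values thus chose it and are given as a description, with no test. Of the 6 genes, 5 had counts and passed the filter on low counts, among 15859 genes with counts and 14371 tested. *Akr1b3*, the mouse aldose reductase, was not analysed here. A further 8 aldo-keto reductases had counts, of which 5 were tested.

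RNA came from 8 male mice of a mixed BALB/c × 129SvEV background, with 2 mice in each of 4 groups, all 10 weeks old per the labels. WT and *Hsf1* null littermates at day 0 were untreated. At day 15, mice of both genotypes had received AOM-DSS, a model of colitis-associated cancer in which the carcinogen azoxymethane (AOM, 10 mg/kg, at 8 weeks of age) is followed by 1.5% dextran sulfate sodium (DSS), a compound that injures the colon epithelium, for 5 days. The titles give day 15, while the protocol in the labels ends with DSS and names no later days. The paper places day 15 some days after the end of DSS. *Hsf1* is lost from every cell of the null mice, and the part of the gene removed was not given in the sources used here. Day 0 mice were untreated, so that the effects of AOM, DSS and the injection itself cannot be told apart.

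Aldo-keto reductases are soluble enzymes that reduce aldehydes and ketones to alcohols, mostly with NADPH. The AKR1C branch acts on steroids, prostaglandins and reactive lipid aldehydes and is known as the hydroxysteroid dehydrogenase branch. The AKR1B branch holds aldose reductase, which turns glucose into sorbitol in the polyol pathway, and relatives that reduce lipid aldehydes and retinal. HSF1, heat shock factor 1, is a transcription factor that binds repeats of the letters GAA and their complement in front of chaperone genes.

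The *Akr1c* genes lie side by side on chromosome 13, in a cluster of 560.2 kb that ends with *Akr1e1* (GENCODE M21 annotation of GRCm38). *Akr1c14* spans chr13:4049011-4090688, *Akr1c13* chr13:4191150-4205596 and *Akr1c19* chr13:4228700-4252843, all on the plus strand. *Akr1c12* spans chr13:4268176-4279433 on the minus strand. *Akr1b8* lies apart from them, on the plus strand of chr6:34354119-34368463.

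*Akr1c12* and *Akr1c13* are near copies. Their coding sequences, of 969 bases each, were identical at 932 positions (96.2%), while each was identical to *Akr1c19* over 78.2% of the alignment. Of all stretches of 50 bases in their annotated transcripts, *Akr1c12* shared 28.6% with *Akr1c13*, and *Akr1c13* shared 24.2% with *Akr1c12*. How reads that match both genes were counted was not given in the sources used here, so values of the pair are also given as a sum. The other members with counts shared at most 5.80% of such stretches with any other gene, which for *Akr1c14* was a single predicted gene.

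The sequences before the RefSeq starts of the 4 *Akr1c* members are shown so that those of *Akr1c19* and *Akr1c13*, the members called between the genotypes at day 15, can be read beside those of their neighbours. They come from RefSeq on GRCm38.p6, read 5′ to 3′ on each gene's own strand, from 250 bases before the RefSeq start, and leave out bases that GENCODE M21 places in an exon of the gene. For *Akr1c13* and *Akr1c12* they end just before the first base of the GENCODE gene. For *Akr1c19* and *Akr1c14* GENCODE holds longer transcripts, so that the stretches end 5.03 kb and 10.53 kb inside the annotated genes. Capitals mark the word CATTAG, or CTAATG where it stands on the other strand. This word was picked after the sequences had been read and overlaps none of the motifs named next to it.
Akr1c13, chr13:4190937-4191149, plus strand: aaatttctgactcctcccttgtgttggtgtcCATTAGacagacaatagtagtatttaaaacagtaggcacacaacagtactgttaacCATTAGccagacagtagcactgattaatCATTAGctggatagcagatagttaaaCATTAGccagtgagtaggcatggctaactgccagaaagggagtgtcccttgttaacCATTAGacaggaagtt
Akr1c12, chr13:4279434-4279649, minus strand: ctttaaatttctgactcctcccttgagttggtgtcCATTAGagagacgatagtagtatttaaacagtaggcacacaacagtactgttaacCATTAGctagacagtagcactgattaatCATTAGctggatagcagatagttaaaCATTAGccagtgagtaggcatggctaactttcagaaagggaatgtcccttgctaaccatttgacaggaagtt
Akr1c19, chr13:4233490-4233732, plus strand: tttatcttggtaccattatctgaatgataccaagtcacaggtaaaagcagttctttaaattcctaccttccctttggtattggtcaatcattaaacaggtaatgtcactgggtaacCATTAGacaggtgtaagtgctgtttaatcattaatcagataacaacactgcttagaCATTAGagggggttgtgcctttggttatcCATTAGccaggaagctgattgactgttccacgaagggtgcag
Akr1c14, chr13:4059341-4059540, plus strand: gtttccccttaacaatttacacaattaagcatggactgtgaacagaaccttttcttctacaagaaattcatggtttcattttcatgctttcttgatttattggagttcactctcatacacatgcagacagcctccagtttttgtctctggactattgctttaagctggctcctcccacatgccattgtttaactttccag

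Over the full 250 bases, the windows of *Akr1c13* and *Akr1c12* were identical at 235 of 254 aligned positions (92.5%), and those of *Akr1c13* and *Akr1c19* at 60.5%. The window of *Akr1c13* held 5 copies of CATTAG, that of *Akr1c12* 4 and that of *Akr1c19* 3, while *Akr1c14* and *Akr1b8* held 0. At least 1 copy stood in 6.36% of 32851 RefSeq windows of the same length, and 8 windows in all held 3 or more. Those of *Akr1c13*, *Akr1c12* and *Akr1c19* are among the 8. As the word was picked from these windows, its share elsewhere is no test of it. None of the 5 windows held GAANNTTC or TTCNNGAA, a pair of heat shock element units that face each other or point apart, or TGACNNNGC, the core of the antioxidant response element that NRF2 binds, on either strand. These stood in 6.69%, 7.17% and 10.2% of all windows. A match is a description of letters, and its absence from a window says nothing of the factor elsewhere.

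Total counts per library were between 2553348 and 12440257, and the replicate 2 libraries of both day 0 groups were the smallest. *Hsf1*, the targeted gene, was between 36.5 and 50.5 CPM in WT mice and between 9.09 and 14.0 CPM in null mice at both days, where CPM is the count relative to library size, with library sizes corrected by edgeR's TMM factors, so that the 4 null libraries matched their labels. All 12 listed epithelial markers had counts, and their sum was between 10887 and 25234 CPM. The 10 markers of squamous epithelium, a sign of anal margin, had counts for 5, which summed to between 8.98 and 49.9 CPM. Groups were compared by edgeR's quasi-likelihood test over all tested genes, and a gene was called where its adjusted p was under 0.05 and its absolute log2 fold change above 1. With 2 mice per group, p-values rest on a spread shared across genes.

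**Figure D1:**
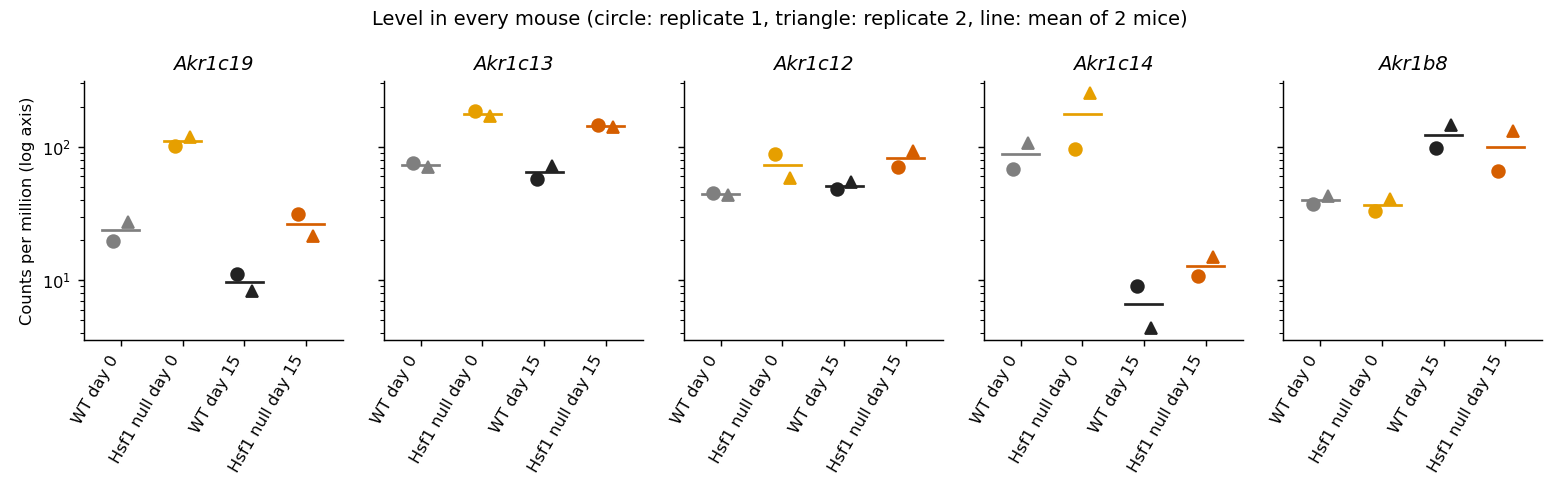
Level of each gene in every mouse, in CPM on a log axis, by group, with circles for replicate 1, triangles for replicate 2 and a line at the mean of 2 mice. *Akr1c19* and *Akr1c13* were higher in both *Hsf1* null mice than in both WT mice at each day, *Akr1c14* was lower at day 15 in both genotypes and *Akr1b8* was higher.

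The genotypes were first compared in the treated mice, whose levels did not enter the choice of *Akr1c19*, although the fit takes its spread from all 8 mice, the untreated ones included. At day 15, 2 of the 5 genes, *Akr1c19* and *Akr1c13*, were higher in *Hsf1* null than in WT mice, 2.72-fold and 2.22-fold. Among all tested genes, 1.91% were called higher in *Hsf1* null mice. No member was called lower.

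At day 15 *Akr1c19* was at 11.05 and 8.24 CPM in WT mice and reached 31.5 and 21.3 CPM in *Hsf1* null mice, from 127, 78, 203 and 159 counts. Both null mice were above both WT mice. The group means were 9.64 ± 1.99 CPM and 26.4 ± 7.23 CPM (SD, n = 2 each), and the log2 fold change was 1.45 (SE 0.31, edgeR adjusted p = 0.0399). The call was lost in 5 of 8 fits that each left out 1 library: without null day 0 replicate 1 the adjusted p was 0.0769, without null day 0 replicate 2 it was 0.0772, without WT day 15 replicate 1 it was 0.0647, without WT day 15 replicate 2 it was 0.221 and without null day 15 replicate 1 it was 0.233. The log2 fold change stayed between 1.14 and 1.70 in these 8 fits. In a fit of the 4 treated mice alone *Akr1c19* did not pass the test (edgeR adjusted p = 0.120), nor did it with the replicate number as a block (edgeR adjusted p = 0.0560).

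At day 15 *Akr1c13* was at 57.3 and 71.7 CPM in WT mice and reached 146 and 141 CPM in *Hsf1* null mice. The 2 null mice were close to each other and above both WT mice. The group means were 64.5 ± 10.2 CPM and 143 ± 3.40 CPM (SD, n = 2 each), with a log2 fold change of 1.15 (SE 0.22, edgeR adjusted p = 0.0310). Without the same 5 libraries the adjusted p was 0.0573, 0.0580, 0.109, 0.124 and 0.141, at a log2 fold change of 1.00 to 1.32 over the 8 fits. In the fit of the treated mice alone the edgeR adjusted p was 0.0978.

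*Akr1c12*, its near copy, was at 48.5 and 54.2 CPM in WT mice at day 15 and reached 70.3 and 93.6 CPM in null mice. The groups did not overlap, but the log2 fold change of 0.68 (SE 0.27) did not pass the test (edgeR adjusted p = 0.167, 95% interval of the fit from 0.08 to 1.27, as are all intervals given here). Summed into 1 feature, *Akr1c12* and *Akr1c13* had a log2 fold change of 0.96, and the sum did not pass the test (edgeR adjusted p = 0.0525). The counts of *Akr1c13* were 1.18 and 1.32 times those of *Akr1c12* in WT mice at day 15 and 2.07 and 1.50 times in null mice.

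*Akr1c14*, a 3α-hydroxysteroid dehydrogenase, was at 8.96 and 4.33 CPM in WT mice at day 15 and at 10.7 and 14.98 CPM in null mice, from 103, 41, 69 and 112 counts. The null mice were above the WT mice, and the log2 fold change of 0.94 (SE 0.50) did not pass the test (edgeR adjusted p = 0.293, interval from -0.18 to 2.07). *Akr1b8*, a relative of aldose reductase, was at 98.1 and 146 CPM in WT and at 66.2 and 133 CPM in null mice. These groups overlapped on the CPM scale, and the log2 fold change was -0.30 (SE 0.34, edgeR adjusted p = 0.634, interval from -1.05 to 0.45). The 4 *Akr1c* members had null mice above WT mice without overlap at day 15, as did 26.3% of all tested genes.

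Of the 10 tested aldo-keto reductases, 2 were called higher and 0 lower at day 15, where 1.91% and 1.25% of all genes were, and their median log2 fold change was 0.69, against -0.03 over all tested genes. *Akr1e1*, which reduces anhydrofructose, was at 14.9 and 16.8 CPM in WT and at 25.0 and 23.4 CPM in null mice, a log2 fold change of 0.61 that did not pass the test (edgeR adjusted p = 0.228). *Akr1a1*, the aldehyde reductase of ascorbate synthesis in mice, was at 811 and 679 CPM in WT and at 1044 and 1069 CPM in null mice (log2 fold change 0.50, edgeR adjusted p = 0.327). *Akr7a5* differed by 0.70 and *Akr1b7* by 1.38 on the log2 scale, and *Akr1b10*, which shares 85.4% of its coding sequence with *Akr1b8*, by -0.47, with edgeR adjusted p of 0.347, 0.315 and 0.499. *Akr1c18*, *Akr1c21* and *Akr1cl* were under the filter on low counts, with at most 10 counts in any library.

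**Figure D2:**
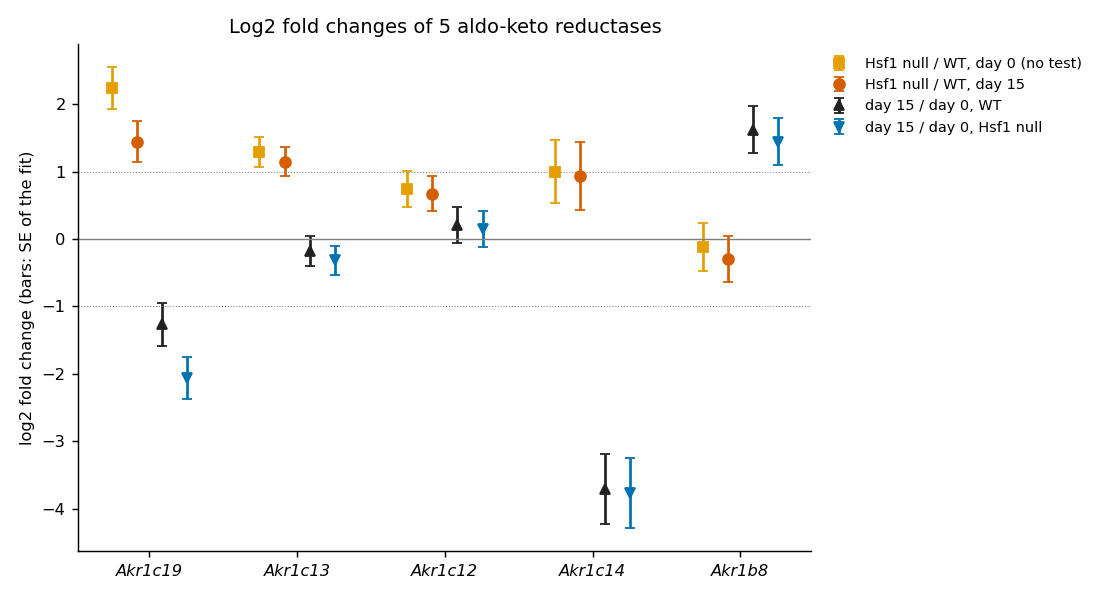
Log2 fold change of each gene from the fit, with bars for the standard error, for *Hsf1* null against WT at each day and for day 15 against day 0 in each genotype. Dotted lines mark log2 fold changes of 1 and -1. The genotype values of *Akr1c13*, *Akr1c12* and *Akr1c14* at day 15 lie near those at day 0, and only *Akr1c14* and *Akr1c19* have values below -1 for day 15 against day 0.

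Markers of cell types moved with genotype at day 15. The 12 epithelial markers summed to 16363 and 16986 CPM in WT mice and 25234 and 21552 CPM in null mice. The absorptive colonocyte markers, 12 of 14 with counts, summed to 2783 and 4913 CPM in WT and to 10200 and 5145 CPM in null mice. The 10 goblet cell markers summed to 8229 and 10167 CPM in WT and to 40675 and 21367 CPM in null mice.

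Immune, fibroblast and endothelial markers had lower sums in null mice, while smooth muscle markers had higher sums. The neutrophil and macrophage markers, 10 of 11 with counts, summed to 879 and 1991 CPM in WT and to 195 and 543 CPM in null mice. The 9 lymphocyte markers summed to 3172 and 3452 CPM in WT and to 198 and 457 CPM in null mice, and the 9 fibroblast markers to 2512 and 2505 CPM in WT mice and 489 and 1526 CPM in null mice. The 6 endothelial markers summed to 296 and 240 CPM in WT and to 63.3 and 137 CPM in null mice. The 8 smooth muscle markers summed to 3678 and 2123 CPM in WT and to 5311 and 6085 CPM in null mice, and the stem and dividing cell markers, 8 of 9 with counts, to 876 and 796 CPM in WT mice and 405 and 878 CPM in null mice. None of these markers was at 0 in both mice of any group. In bulk tissue, fewer cells of a type and less RNA per cell cannot be told apart.

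Values of the called genes, and then of the other members, were therefore also set against these sums. Per 1000 CPM of epithelial markers, *Akr1c19* was at 0.675 and 0.485 CPM in WT and at 1.25 and 0.987 CPM in null mice at day 15. *Akr1c13* was at 3.50 and 4.22 in WT and at 5.77 and 6.53 in null mice on this scale. Neither gene overlapped between the genotypes, and both differed by less than on the CPM scale. *Akr1c12*, *Akr1c14* and *Akr1b8* overlapped between the genotypes on the epithelial scale.

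Against the absorptive and goblet cell lists the null mice were not above the WT mice. Per 1000 CPM of absorptive colonocyte markers, *Akr1c19* was at 3.97 and 1.68 CPM in WT and at 3.09 and 4.13 CPM in null mice, and *Akr1c13* at 20.6 and 14.6 in WT and at 14.3 and 27.4 in null mice. Both genes overlapped between the genotypes. Per 1000 CPM of goblet cell markers, *Akr1c19* overlapped as well, at 1.34 and 0.810 CPM in WT mice and 0.774 and 0.995 CPM in null mice, while *Akr1c13* was lower in null mice, at 6.97 and 7.05 in WT and 3.58 and 6.59 in null mice. *Akr1c12* overlapped on the absorptive scale and was lower in null mice on the goblet scale, at 5.89 and 5.33 in WT and 1.73 and 4.38 in null mice. *Akr1c14* overlapped on both. *Akr1b8* was lower in null mice on both. On the absorptive scale it was at 35.3 and 29.8 in WT and 6.49 and 25.8 in null mice. On the goblet scale it was at 11.9 and 14.4 in WT and 1.63 and 6.21 in null mice. The part of cell makeup in the genotype difference was not tested.

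**Figure D3:**
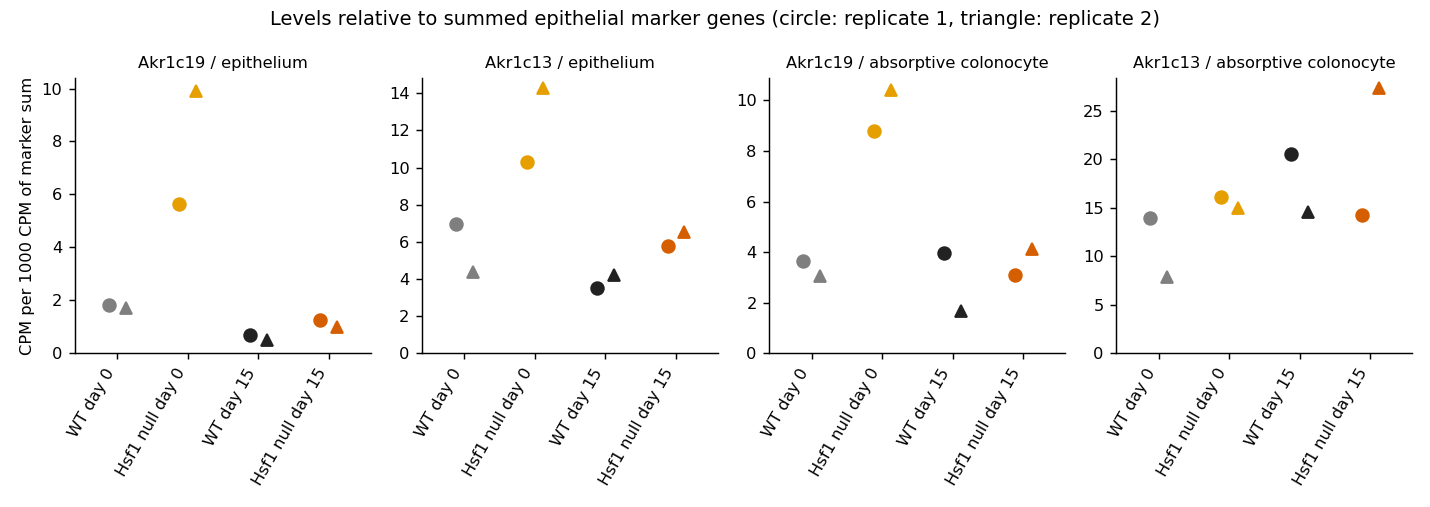
*Akr1c19* and *Akr1c13* in every mouse, in CPM per 1000 CPM of summed epithelial or absorptive colonocyte markers, by group, with circles for replicate 1 and triangles for replicate 2. At day 15 the genotypes are apart against the epithelial sum and overlap against the absorptive sum, and at day 0 they are apart against both.

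At day 0, the contrast that chose *Akr1c19*, levels are given with no test. *Akr1c19* measured 19.8 and 27.4 CPM in WT mice and 102 and 119 CPM in *Hsf1* null mice, from 202, 69, 1238 and 330 counts. The group means were 23.6 ± 5.37 CPM and 110.1 ± 11.97 CPM (SD, n = 2 each). The null mice were 4.72-fold higher, a log2 ratio of 2.24, and 22 of the 14371 tested genes had a larger ratio in that direction. Over all genes, 0 (0.0%) were called at day 0 by edgeR and 904 had an unadjusted p under 0.05, while DESeq2 called 17.

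The neighbours of *Akr1c19* differed in the same direction at day 0. *Akr1c13* was at 75.6 and 70.3 CPM in WT and at 186 and 171 CPM in null mice, a log2 ratio of 1.29. *Akr1c12* was at 44.8 and 43.7 CPM in WT and at 88.0 and 58.9 CPM in null mice, a log2 ratio of 0.74. In both genes the null mice were above the WT mice without overlap, as for 18.7% of tested genes at day 0.

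*Akr1c14* was at 68.5 and 108 CPM in WT and at 97.1 and 255 CPM in null mice at day 0, where the groups overlapped and null day 0 replicate 2 stood above the other mouse of its group. *Akr1b8* was at 37.1 and 42.5 CPM in WT and at 33.1 and 40.6 CPM in null mice, which overlapped. Null mice were above WT mice without overlap at both days for *Akr1c19*, *Akr1c13* and *Akr1c12*, as for 8.04% of tested genes, a share that includes the contrast used for the choice.

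Marker sums overlapped between the genotypes at day 0 for the epithelium, at 10887 and 16012 CPM in WT mice and 18086 and 11967 CPM in null mice, and for goblet cells, at 19663 and 28526 CPM in WT mice and 28032 and 23602 CPM in null mice. Lymphocyte markers were lower in null mice without overlap at day 0, at 1919 and 1704 CPM in WT mice and 565 and 1429 CPM in null mice, as were smooth muscle markers, at 7152 and 9808 CPM and at 7036 and 6855 CPM, and their part in the day 0 values was not tested. Absorptive colonocyte markers summed to 5402 and 8924 CPM in WT and to 11575 and 11371 CPM in null mice. Per 1000 CPM of epithelial markers, *Akr1c19* was at 1.82 and 1.71 CPM in WT and at 5.62 and 9.91 CPM in null mice at day 0, and per 1000 CPM of absorptive markers at 3.66 and 3.07 CPM and at 8.78 and 10.4 CPM. On both scales the null mice were above the WT mice.

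The change with AOM-DSS was given within each genotype, in comparisons that share mice with those between genotypes. *Akr1c14* was lower and *Akr1b8* higher at day 15 than at day 0 in both genotypes, so that 1 of the 4 members tested was called in each direction in WT mice and likewise in null mice. Over all genes, 4.27% were called lower and 3.47% higher in WT mice, and 6.48% lower and 5.3% higher in *Hsf1* null mice.

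Marker lists moved between the days as well. Of the 5 squamous markers tested, 2 were called higher at day 15 in WT mice and 3 in null mice, and their sum was 9.90 and 10.7 CPM in WT mice and 10.3 and 8.98 CPM in null mice at day 0, against 26.3 and 49.1 CPM and 23.3 and 49.9 CPM at day 15. Of 8 smooth muscle markers, 5 were called lower in WT mice and 0 in null mice. Of 10 neutrophil and macrophage markers, 3 were called higher in WT mice and 0 in null mice. Of 12 absorptive colonocyte markers, 3 were called lower in WT and 2 in null mice, and of 10 goblet cell markers, 3 in WT and 0 in null mice. The part of these shifts in the changes of the members was not tested.

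*Akr1c14* went from 68.5 and 108 CPM at day 0 to 8.96 and 4.33 CPM at day 15 in WT mice, 13.1-fold lower (log2 fold change -3.71, SE 0.53, edgeR adjusted p = 0.00739). In *Hsf1* null mice it went from 97.1 and 255 CPM to 10.7 and 14.98 CPM, 13.6-fold lower (log2 fold change -3.76, SE 0.52, edgeR adjusted p = 0.0123). In each genotype the lowest mouse at day 0 was several times above the highest at day 15. Among all tested genes, 66 in WT and 24 in null mice had a more negative log2 fold change. The call was lost without WT day 15 replicate 2 in WT mice (adjusted p = 0.0511) and without null day 0 replicate 2 in null mice (adjusted p = 0.123), where the log2 fold change was -2.91. Without WT day 15 replicate 1 it was -4.33 in WT mice and kept its call.

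*Akr1c14* was also set against the absorptive colonocyte sum, which was at 5402 and 8924 CPM at day 0 and 2783 and 4913 CPM at day 15 in WT mice. Per 1000 CPM of absorptive colonocyte markers it went from 12.7 and 12.1 CPM to 3.22 and 0.881 CPM in WT mice and from 8.39 and 22.4 CPM to 1.05 and 2.91 CPM in null mice. The mice of the 2 days did not overlap on this scale in either genotype.

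*Akr1b8* went from 37.1 and 42.5 CPM at day 0 to 98.1 and 146 CPM at day 15 in WT mice, 3.08-fold higher (log2 fold change 1.62, SE 0.35, edgeR adjusted p = 0.0265). In *Hsf1* null mice it went from 33.1 and 40.6 CPM to 66.2 and 133 CPM, 2.72-fold higher (log2 fold change 1.44, SE 0.35, edgeR adjusted p = 0.0302). Both treated mice of each genotype were above both untreated mice on the CPM scale, as for 31.0% of tested genes in each genotype. Per 1000 CPM of epithelial markers, *Akr1b8* was at 3.41 and 2.65 CPM at day 0 and 5.997 and 8.62 CPM at day 15 in WT mice, which did not overlap, and at 1.83 and 3.39 CPM and 2.62 and 6.16 CPM in null mice, which did. The days also overlapped in null mice per 1000 CPM of goblet cell markers, at 1.18 and 1.72 CPM and 1.63 and 6.21 CPM, and per 1000 CPM of absorptive markers they did not. The call in WT mice was lost without WT day 0 replicate 1 (adjusted p = 0.107), WT day 0 replicate 2 (0.131) or WT day 15 replicate 2 (0.149), and that in null mice without null day 0 replicate 1 (0.107), null day 0 replicate 2 (0.182) or null day 15 replicate 2 (0.120). Without null day 15 replicate 2 the log2 fold change in null mice was 0.86.

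*Akr1c13* and *Akr1c12* did not pass the test between days. For *Akr1c13* the log2 fold change was -0.18 in WT mice (interval from -0.67 to 0.32) and -0.32 in null mice (interval from -0.81 to 0.17), with edgeR adjusted p of 0.637 and 0.345. For *Akr1c12* it was 0.21 in WT mice (interval from -0.39 to 0.81) and 0.15 in null mice (interval from -0.44 to 0.74), with edgeR adjusted p of 0.646 and 0.734.

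*Akr1c19*, whose day 0 mice chose it, had lower levels at day 15 in both genotypes, with no test. The level was 2.41-fold lower in WT mice, from a mean of 23.6 to 9.64 CPM, and 4.17-fold lower in null mice, from 110.1 to 26.4 CPM. The mice of the 2 days did not overlap in either genotype. Of all tested genes, 31.5% in WT and 30.3% in null mice were lower at day 15 without overlap. The 2 *Hsf1* null mice at day 15 were on both sides of the WT day 0 replicate 2, at 31.5 and 21.3 against 27.4 CPM. Per 1000 CPM of absorptive markers the days overlapped in WT mice, at 3.66 and 3.07 CPM and 3.97 and 1.68 CPM. Per 1000 CPM of goblet cell markers they did too, at 1.01 and 0.960 CPM and 1.34 and 0.810 CPM. The days did not overlap in null mice on these scales, or in either genotype on the epithelial scale.

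Among the other aldo-keto reductases, *Akr1a1* rose in *Hsf1* null mice, from 536 and 336 CPM to 1044 and 1069 CPM (log2 fold change 1.28, SE 0.30, edgeR adjusted p = 0.0269). In WT mice it was at 466 and 417 CPM at day 0 and at 811 and 679 CPM at day 15, which did not pass the test (log2 fold change 0.75, edgeR adjusted p = 0.133). The difference between these changes was 0.52 (SE 0.41, edgeR adjusted p = 0.750). The call in null mice was lost without null day 0 replicate 2 (adjusted p = 0.197), null day 15 replicate 1 (0.0741) or null day 15 replicate 2 (0.0666). *Akr1b7*, at 0.422 to 2.38 CPM, *Akr1b10*, *Akr1e1* and *Akr7a5* were called in neither genotype. *Akr7a5* had a log2 fold change of 0.98 in null mice, which became 1.91 and was called without null day 0 replicate 1 (edgeR adjusted p = 0.0317).

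Whether the change with treatment differed between the genotypes was asked with an interaction term. None of the 4 members tested was called, and 0.00696% of all genes were, which is 1 gene by edgeR, with 1239 at an unadjusted p under 0.05 and 116 called by DESeq2. The null change minus the WT change was -0.06 for *Akr1c14* (interval from -1.62 to 1.51), -0.18 for *Akr1b8* (from -1.27 to 0.90), -0.14 for *Akr1c13* (from -0.83 to 0.56) and -0.06 for *Akr1c12* (from -0.91 to 0.78). The interval for *Akr1c14* reaches past 1 log2 unit on both sides and that for *Akr1b8* on the negative side. For *Akr1c19* the value was -0.79, with no test.

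Levels were compared between genes per length, as CPM per kb of annotated exon over all transcripts of a gene (RPKM), which lowers the value of a gene whose long isoforms are little used. By group means on this scale *Akr1a1* was the most abundant tested aldo-keto reductase in each group, at 159 to 384 RPKM. *Akr1c13* came second except in WT mice at day 15, where *Akr1b8* did. In null mice at day 0 the ranges overlapped, at 195 and 122 RPKM for *Akr1a1* and 130 and 119 RPKM for *Akr1c13*. *Akr1c13* was at a mean of 50.9 RPKM in WT and 124 RPKM in null mice at day 0, and at 45.0 and 99.9 RPKM at day 15. *Akr1c12* was at 35.1 and 58.3 RPKM at day 0 and at 40.7 and 65.0 RPKM at day 15. *Akr1b8* was at 26.6 and 24.6 RPKM at day 0 and at 81.6 and 66.3 RPKM at day 15.

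*Akr1c19*, with 5.892 kb of annotated exon, was at a mean of 4.005 RPKM in WT and 18.7 RPKM in null mice at day 0, and at 1.64 and 4.48 RPKM at day 15. It was the least abundant member in WT mice at each day and in null mice at day 0. *Akr1c14* was at 27.2 and 54.4 RPKM at day 0 and at 2.05 and 3.96 RPKM at day 15, where it lay next to *Akr1c19*. Between *Akr1c19* and *Akr1c14* at day 15, both genotypes had ranges that overlapped on this scale.

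By group, *Akr1c19* was highest in untreated null mice, then in treated null and untreated WT mice, whose ranges overlapped, and lowest in treated WT mice. *Akr1c13* was highest in untreated null mice, then in treated null mice, and lowest in the WT mice of both days, which overlapped with each other. *Akr1c12* was higher in the null mice of both days, which overlapped, than in the WT mice of both days. *Akr1c14* was highest in the day 0 groups, which overlapped, and *Akr1b8* in the day 15 groups, which overlapped.

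**Figure D4:**
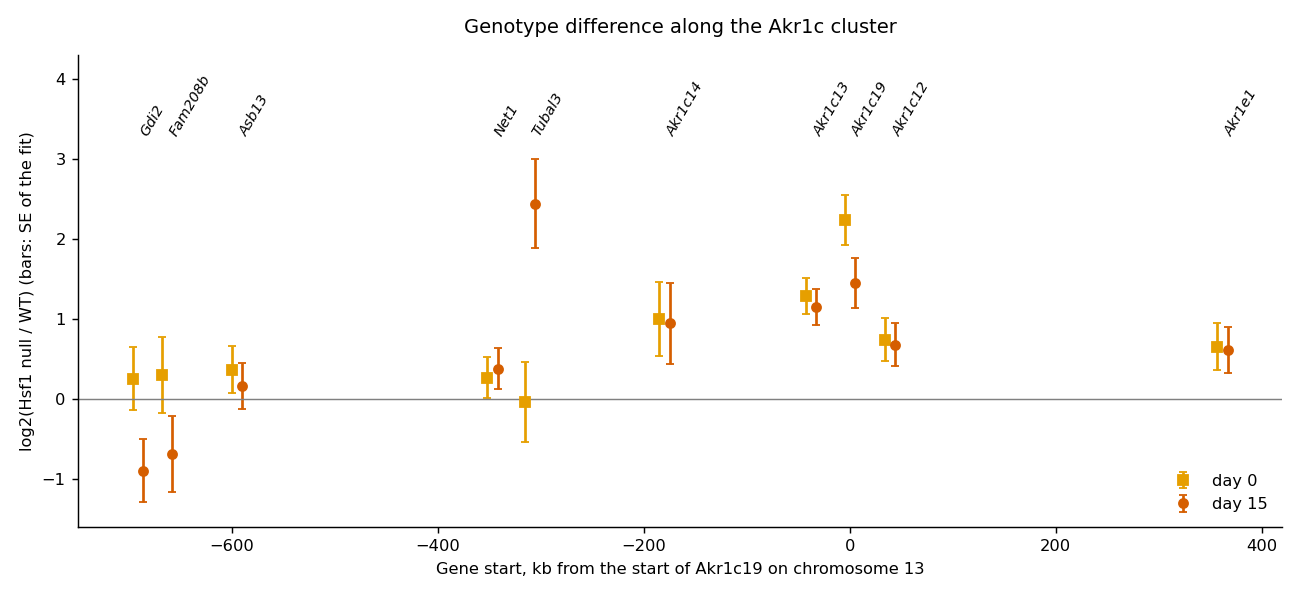
Log2 ratio of *Hsf1* null to WT at day 0 (squares) and day 15 (circles) for the 10 tested protein-coding genes in and around the *Akr1c* cluster, with bars for the standard error, by distance of the gene start from that of *Akr1c19* in kb. The 5 aldo-keto reductases all lie above 0 at both days. The genes before the cluster lie on both sides of 0 at day 15. At day 0 *Tubal3* lies at -0.04 and the other genes before the cluster between 0.25 and 0.36.

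The cluster was looked at as a stretch of chromosome, in a window chosen after the values were seen, of 500 kb on each side. It held 18 protein-coding genes, of which 12 had counts and 10 were tested, 5 of them aldo-keto reductases. At day 15 all 5 had null mice above WT mice without overlap. Of the 5 other tested genes, all of them on the *Akr1c14* side, 3 did so and 1 was below, where 26.3% of all tested genes were above and 28.6% below. *Tubal3*, a tubulin-like gene, was at 1.04 and 0.845 CPM in WT and at 4.81 and 5.62 CPM in null mice at day 15 (log2 fold change 2.44, SE 0.56, edgeR adjusted p = 0.0477), and was the only one of the 5 called. At day 0 *Tubal3* was at 6.86 and 13.5 CPM in WT and at 7.14 and 12.6 CPM in null mice, which overlapped. *Gdi2*, at the far end of the window, was below WT in null mice at day 15 (log2 fold change -0.90, edgeR adjusted p = 0.207).

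Other enzymes that share substrates or cofactors with the aldo-keto reductases were read from lists chosen with earlier results of these data known. *Sord*, sorbitol dehydrogenase, which follows aldose reductase in the polyol pathway, was at 45.9 and 30.0 CPM in WT mice at day 15 and at 145 and 92.3 CPM in null mice (log2 fold change 1.64, SE 0.31, edgeR adjusted p = 0.0276). *Sord* lost its call without null day 0 replicate 1 (adjusted p = 0.0631), null day 0 replicate 2 (0.0619), WT day 15 replicate 2 (0.172) or null day 15 replicate 1 (0.163).

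Among 23 tested carbonyl reductases and short-chain dehydrogenases, which include *Sord*, 3 were called higher and 1 lower at day 15, where 1.91% and 1.25% of all genes were, at a median log2 fold change of 0.42. Of 14 NRF2 genes, which encode NRF2 and enzymes it activates under oxidative stress, 1 was called higher and 1 lower against the same shares, at a median of -0.42. The higher one, the glutathione transferase *Gstm1*, was at 218 and 117 CPM in WT and at 684 and 555 CPM in null mice (log2 fold change 1.89, edgeR adjusted p = 0.0357), a call that was lost without null day 0 replicate 1 (0.0703), null day 0 replicate 2 (0.0697), WT day 15 replicate 2 (0.202) or null day 15 replicate 1 (0.183). Of 10 genes of NADPH supply, 0 were called, and the lowest p was that of *Me2*, a mitochondrial malic enzyme (log2 fold change 0.94, edgeR adjusted p = 0.0558). Of 13 tested prostaglandin enzymes, 0 were called, with the lowest p for *Hpgd*, which inactivates prostaglandins, at 36.9 and 13.2 CPM in WT mice and 113 and 61.0 CPM in null mice (edgeR adjusted p = 0.0749). *Hpgd* was called by DESeq2 (adjusted p = 0.00288), and by edgeR without WT day 15 replicate 1 (adjusted p = 0.0375) or null day 15 replicate 2 (0.0483).

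*Sord* was called lower at day 15 than at day 0 in WT mice (log2 fold change -1.79, edgeR adjusted p = 0.0127) and not in null mice (log2 fold change -0.99, edgeR adjusted p = 0.0557), and the difference between these changes was not called (edgeR adjusted p = 0.637). Between days, 0 of the 14 NRF2 genes were called in WT mice and 3 were called lower in null mice, where 6.48% of all genes were, and 0 of the 14 were called in the interaction. Of the 9 aldo-keto reductases tested between days, 1 was called higher and 1 lower in WT mice, where 3.47% and 4.27% of all genes were, and 2 higher and 1 lower in null mice, where 5.3% and 6.48% were.

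Over all genes, 1.91% were called higher and 1.25% lower in null mice at day 15. The marker lists gave 2 of 12 absorptive colonocyte markers called higher in null mice, led by *Aqp8* (log2 fold change 3.93, edgeR adjusted p = 0.0210), and 3 of 10 goblet cell markers, led by *Clca1* (2.86, 0.0210). Called lower were 3 of 10 neutrophil and macrophage markers, led by *C1qa* (-2.16, 0.0137), 2 of 9 lymphocyte markers, led by *Jchain* (-4.24, 0.0240), and 1 of 6 endothelial markers, *Cdh5* (-2.36, 0.0316). Each of these 5 calls was lost in 4 or 5 of the 8 fits without 1 library, for all 5 without null day 0 replicate 1, null day 0 replicate 2, WT day 15 replicate 2 and null day 15 replicate 1, and for *Aqp8*, *Clca1* and *Cdh5* also without WT day 15 replicate 1, at adjusted p of up to 0.132. Without null day 15 replicate 1 the log2 fold change was 2.53 for *Aqp8*, 2.06 for *Clca1*, -3.49 for *Jchain* and -1.77 for *Cdh5*, and without null day 15 replicate 2 it was 4.63 for *Aqp8*, -5.84 for *Jchain* and -3.39 for *Cdh5*. By edgeR, no gene was called in the lists for epithelium, stem and dividing cells, fibroblasts, smooth muscle or squamous epithelium, whose lowest p were those of *Krt18*, *Ccnb1*, *Dcn*, *Actg2* and *Krt14*, with edgeR adjusted p of 0.219, 0.151, 0.0696, 0.0570 and 0.176. DESeq2 called *Dcn* (adjusted p = 0.000419) and *Actg2* (0.000448), and edgeR called *Dcn* without null day 15 replicate 2 (0.0198) or with the replicate block (0.0464) and *Actg2* without WT day 15 replicate 1 (0.0404) or with no filter (0.0497).

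The genes whose level was most like that of a member were found by Pearson's r of log2 CPM over the 8 mice, which share the 4 groups and their library sizes, so that r describes these mice and has no p. For *Akr1c19* the closest were *Glod4* (r = 0.983), *Ephx2*, the soluble epoxide hydrolase (0.979), *Per2*, a component of the circadian clock (0.975), *Cox6c*, a subunit of cytochrome c oxidase (0.974), and *Cryzl1* (0.973). *Ephx2* was at 21.6 and 23.4 CPM in WT mice and 63.3 and 62.2 CPM in null mice at day 0, and at 14.0 and 8.55 CPM in WT mice and 35.2 and 19.4 CPM in null mice at day 15. *Per2* was at 42.2 and 56.8 CPM in WT mice and 149 and 181 CPM in null mice at day 0, and at 26.6 and 26.0 CPM in WT mice and 58.3 and 70.1 CPM in null mice at day 15. By group means, both genes had the order of groups seen for *Akr1c19*, and for *Per2* the treated null mice were above the untreated WT mice without overlap.

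For *Akr1c13* the closest genes were *Ggnbp2* (r = 0.990), *Nt5c3* (0.973) and *Arglu1* (0.964), and for *Akr1c12* the noncoding *Snhg7* (0.957), *Fam76b* (0.940) and *Ccndbp1* (0.940). For *Akr1c14* they were *Fam135a* (0.995), *Dpyd*, which breaks down pyrimidines (0.990), and *Slc35g1* (0.989), and for *Akr1b8* the proteasome subunit *Psmc4* (0.978), *Igsf23* (0.975) and *Myl7* (0.975). *Dpyd* was between 10.8 and 27.3 CPM at day 0 and between 0.845 and 2.01 CPM at day 15. Between members, r was 0.818 for *Akr1c19* and *Akr1c13*, 0.809 for *Akr1c12* and *Akr1c13*, 0.405 for *Akr1c19* and *Akr1c12*, and -0.877 for *Akr1c14* and *Akr1b8*.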

How the data were processed

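The authors prepared libraries with a Lexogen SENSE mRNA kit, aligned reads to mm10 with STAR and deposited raw counts per gene symbol. The counting program, gene annotation and read length were not given in the sources used here. A second deposited file, counts divided by DESeq2 size factors, was not used. Samples were grouped by the genotype and day in their titles.

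The quasi-likelihood test of edgeR 4.0.16 was run in R 4.3.3 on genes of mean normalized count above 5, with TMM factors and 1 model of 4 groups over all 8 samples (prior degrees of freedom 5.97). Benjamini-Hochberg adjustment ran over all 14371 tested genes of a comparison. A call required an adjusted p under 0.05 with a log2 fold change past 1 in size. Intervals of 95% span 2.229 standard errors of the fit on each side. The fit was tested on simulated data first. Whether mice of a group were from separate litters is not stated. The p-values rest on the spread between these mice, shared in part across genes.

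The members, gene lists and tests were chosen with earlier results of these data known. Named genes are the members, other aldo-keto reductases with counts, *Hsf1*, *Sord*, the gene of lowest p at day 15 in each list, and the genes of highest Pearson's r with a member on log2 CPM (prior count 2), 5 for *Akr1c19* and 3 for each other. 1 list and its leading gene are not reported here. *Tubal3*, *Gdi2*, *Asb13*, *Net1* and *Fam208b* were named after their values were seen. Positions come from GENCODE M21 and upstream sequences from RefSeq, both on GRCm38, the build called mm10. Depth was 2553348 to 12440257 counts per library.

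Alternatives were DESeq2 1.42.0, its size factors in edgeR, no filter, filterByExpr, the replicate number as a block, only the groups compared, counts thinned to the smallest library, no fold threshold, *Akr1c12* and *Akr1c13* summed, and each sample left out. A crossed block, both small day 0 libraries left out, and DESeq2 at day 0 were added after the data were seen. Same-numbered mice are different animals.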

Additional observations from a re-analysis of the deposited data

How the results depend on the processing

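Directions of the called member values held under every alternative. DESeq2 called 1175 genes in place of 455 between genotypes at day 15, 1738 in place of 1112 between days in WT mice and 116 in place of 1 in the interaction, with the same number of members as edgeR in the 4 tested comparisons, and 17 genes in place of 0 at day 0. With only the groups compared, 6 genes and 0 members were called at day 15, from 4 mice in place of 8, while 950 genes and 2 members were called between days in WT mice and 1380 genes and 2 members in null mice. Without both small day 0 libraries the counts were 18, 4, 0 and 0 genes and 0 members in the 4 comparisons. Leaving out 1 library gave 12 to 873 genes and 0 to 2 members at day 15, 92 to 1336 genes and 0 to 2 members between days in WT mice, 0 to 1891 genes and 0 to 2 members in null mice, and 0 to 50 genes in the interaction. With *Akr1c12* and *Akr1c13* summed, 1 of 4 features was called at day 15. At day 15 *Akr1c19* and *Akr1c14* rested on 78 to 203 and 41 to 112 counts per library. The causes of these shifts were not tested otherwise.

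The replicate numbers pair no animals and gave correlations of deviations from -0.29 to 0.148. The replicate block called 343 genes and 1 member at day 15 (*Akr1c19* had an edgeR adjusted p of 0.0560), 868 in WT mice, 1505 in null mice and 2 in the interaction. With the WT day 0 numbers exchanged these counts were 1314, 1856, 2296 and 54. No filter and thinning each called 2 genes in the interaction.

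The values that changed sign included no call. Thinned, the interaction was 0.181 for *Akr1c13* and 0.110 for *Akr1e1*. Without both small day 0 libraries, the change was 0.0715 for *Akr7a5* in WT mice, -0.133 for *Akr1c12* and -0.00884 for *Akr1b10* in null mice, and the interaction 0.414 for *Akr1c14* and 0.0386 for *Akr1e1*. Over the fits without 1 library, *Akr1b8* at day 15 ran from -0.883 to 0.128 and *Akr7a5* in WT mice from -0.456 to 0.216. In null mice *Akr1c12* ran from -0.103 to 0.474, *Akr1b7* from -1.27 to 0.303 and *Akr1b10* from -0.335 to 0.422. The interaction ran from -0.315 to 0.263 for *Akr1c12*, -0.292 to 0.0306 for *Akr1c13*, -0.599 to 0.797 for *Akr1c14*, -0.768 to 0.233 for *Akr1b8*, -0.711 to 0.0400 for *Akr1b10* and -0.13 to 0.0485 for *Akr1e1*.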
